A study of Mus musculus with 6 samples.

Results

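The genes described here are those of the extracellular matrix of the heart: the collagens, the lysyl oxidases that crosslink them, and a fixed set of matrix glycoproteins and proteoglycans. They are the protein-coding rows whose gene name begins with Col, a number, a and a number, or with Lox, together with Fn1, Postn, Tnc, Tnxb, Thbs1, Thbs2, Thbs4, Sparc, Eln, Fbn1, Dcn, Bgn, Lum, Vcan, Ctgf, Comp and Cilp. This gave 66 of the 27021 genes in the count table. Of these, 42 were collagen chains, 22 were other matrix genes, and 2 were matched by name only, namely Col4a3bp, which encodes a ceramide transfer protein, and Loxhd1, which encodes a protein of hair cells in the inner ear.

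Messenger RNA was sequenced from hearts of Immtfl/fl-Myh6-MCM mice (3 hearts) and of Immt+/+-Myh6-MCM control mice (3 hearts). Immt encodes Mic60, a scaffold of the complex that holds the cristae junctions of mitochondria. In the Immtfl/fl-Myh6-MCM mice both Immt alleles carry loxP sites around an exon, while the controls have unmodified alleles. By the labels both groups carry the Myh6-MCM transgene, a tamoxifen-inducible MerCreMer recombinase under the Myh6 promoter, so that deletion is directed to cardiomyocytes and not to the fibroblasts, vascular cells and immune cells of the same heart. The Myh6-MCM line is on the C57BL/6 background, and mice of both sexes were used. All mice received 3 tamoxifen injections from 6 weeks of age, and hearts were taken 20 weeks later. In what follows, fl/fl hearts 1, 2 and 3 and +/+ hearts 1, 2 and 3 are the replicates as numbered in the labels. Levels are CPM, which are counts relative to library size, scaled by the trimmed mean of M-values (TMM) method so that libraries of different composition can be compared.

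Collagens are built from 3 polypeptide chains wound into a triple helix. Fibrillar collagens form the tension-bearing fibers between muscle bundles, network collagens form sheets such as basement membranes, and beaded-filament and fibril-associated collagens link fibers to cells and to each other. In the adult heart fibrillar collagen comes mainly from fibroblasts, basement membrane collagen comes from several cell types, and lysyl oxidases, elastic fiber proteins and matricellular glycoproteins are best known for their induction during wound repair and pressure overload.

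The targeted gene was measured first. Immt had 23.0, 28.7 and 39.2 CPM in fl/fl hearts 1, 2 and 3, against 663, 453 and 524 CPM in +/+ hearts 1, 2 and 3. Its level in fl/fl hearts was 5.55% of that in +/+ hearts (log2 fold change -4.17, SE 0.24, adjusted p = 6.33e-06, edgeR quasi-likelihood test). This count covers the whole gene and is not limited to the floxed exon. Libraries held 49793058 to 53251529 counts in fl/fl hearts and 42301627 to 44151674 counts in +/+ hearts. Mitochondrially encoded genes took 8.20 to 8.85% of counts in fl/fl hearts and 19.5 to 23.3% in +/+ hearts. Esr1, part of whose sequence is also carried by the MerCreMer transgene, had 71 to 323 counts in fl/fl hearts and 144479 to 165400 counts in +/+ hearts, so the transgene that the labels give to both groups was not expressed alike in them, and transgene level and Immt genotype cannot be told apart. Xist was expressed in heart 3 of each group (20811 counts in the fl/fl heart and 11605 in the +/+ heart) and was at 4 to 16 counts in the other 4 hearts.

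Of the 66 genes, 59 had enough reads to be tested. The 7 that did not were Col2a1, Col6a4, Col6a5, Col17a1, Col19a1, Col24a1 and Loxhd1, none of which had more than 24 counts in any heart. A gene was called higher or lower at an adjusted p under 0.05, taken over all 17146 tested genes, and a log2 fold change beyond 1 in either direction, the thresholds the study used for its volcano plot. In fl/fl hearts 15 matrix genes were called higher (25.4% of those tested, where 9.91% of all tested genes were called higher) and 5 were called lower (8.47%, where 10.6% of all tested genes were called lower). Among tested protein-coding genes alone, 10.7% were called higher and 10.3% lower. On the adjusted p alone, 19 were higher and 5 were lower, where 19.9% and 18.5% of all tested genes passed in those directions, and 35 did not pass. The median log2 fold change was 0.34 over the 59 genes and -0.00 over all tested genes. In 31 of the 59 genes (52.5%) the fl/fl and +/+ hearts did not overlap, which was also so for 52.8% of all tested genes. These are bulk libraries, so a change in the number of cells of a type and a change in RNA per cell cannot be told apart.

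The calls were unevenly spread over the roles of the genes. Among the 36 tested collagen chains 4 were higher (11.1%) and 4 were lower (11.1%), with a median log2 fold change of 0.11. Among the 22 other matrix genes 11 were higher (50%) and 1 was lower (4.55%), with a median of 1.07. The log2 fold change was above 0 in all 8 network collagens and below 0 in all 4 tested beaded-filament collagens, but without fl/fl heart 1 that of the network collagen Col4a4 was -0.04.

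**Figure D1:**
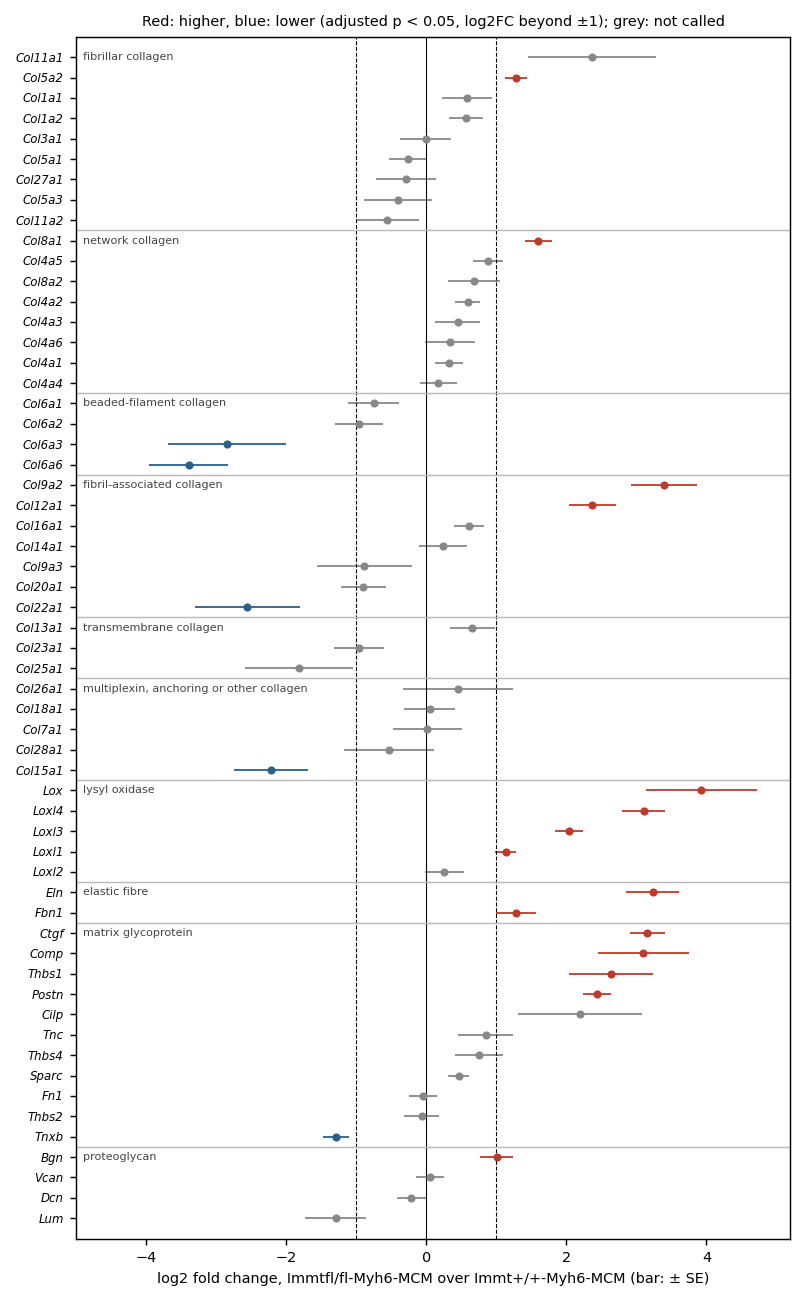
Log2 fold change of the 58 tested matrix genes (Col4a3bp left out), Immtfl/fl-Myh6-MCM over Immt+/+-Myh6-MCM hearts, with bars of 1 SE, grouped by role. Red points were called higher (15 genes), blue points lower (5 genes) and grey points neither, and the dashed lines mark a log2 fold change of -1 and 1.

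In fl/fl hearts, 4 of the 5 lysyl oxidases rose. These copper enzymes oxidize lysine side chains of collagen and elastin, which lets the chains crosslink. Lox, the founding member, had 62.5, 63.2 and 172 CPM in fl/fl hearts 1, 2 and 3, against 3.32, 12.8 and 3.45 CPM in +/+ hearts 1, 2 and 3. Heart 3 was the highest of the fl/fl hearts and heart 2 the highest of the +/+ hearts, and the groups were well apart. The increase was 15.2-fold (log2 fold change 3.93, SE 0.79, adjusted p = 0.0131). The estimate moved with single hearts, to 3.27 without fl/fl heart 3 and to 4.87 without +/+ heart 2.

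Loxl4 had 12.9, 13.6 and 7.47 CPM in fl/fl hearts, against 1.61, 1.29 and 1.05 CPM in +/+ hearts, an 8.61-fold increase (log2 fold change 3.11, SE 0.31, adjusted p = 8.88e-05). Loxl3 had 31.6, 26.0 and 33.5 CPM in fl/fl hearts, against 6.34, 9.45 and 6.48 CPM in +/+ hearts, a 4.09-fold increase (log2 fold change 2.03, SE 0.20, adjusted p = 8.66e-05). The groups did not overlap in either gene, and fl/fl heart 3 was the lowest fl/fl heart for Loxl4. Exons of Loxl3 share 11.6% of their bases with exons of Htra2 on the other strand, and the sources used here do not say whether reads were counted by strand. Loxl1, which acts on elastin in mice, had 76.1, 56.0 and 72.1 CPM in fl/fl hearts, against 27.6, 34.9 and 30.7 CPM in +/+ hearts, a 2.19-fold increase (log2 fold change 1.13, SE 0.15, adjusted p = 4.37e-04). Loxl2 was the member that was not called, with 22.0, 16.4 and 9.79 CPM in fl/fl hearts and 13.4, 11.3 and 15.7 CPM in +/+ hearts, which overlapped (log2 fold change 0.25, SE 0.28, adjusted p = 0.508).

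Both elastic fiber genes rose. Eln encodes tropoelastin, the elastic core of the fiber. It had 254, 209 and 237 CPM in fl/fl hearts, against 14.6, 40.5 and 19.1 CPM in +/+ hearts. The lowest fl/fl heart was far above the highest +/+ heart, and the increase was 9.42-fold (log2 fold change 3.24, SE 0.38, adjusted p = 6.17e-04). Fbn1 encodes fibrillin-1, the microfibril on which elastin is laid down. It had 269, 176 and 111 CPM in fl/fl hearts, against 69.9, 80.6 and 78.3 CPM in +/+ hearts, with the fl/fl hearts spread widely and the +/+ hearts tightly grouped. The increase was 2.43-fold (log2 fold change 1.28, SE 0.28, adjusted p = 8.86e-03), and without fl/fl heart 1 it was 0.93 on the log2 scale, under the fold threshold. Exons of Fbn1 share 20.1% of their bases with Gm9913 on the other strand. Within each heart, the ratio of Eln to Fbn1 counts was 0.942, 1.19 and 2.14 in fl/fl hearts and 0.209, 0.503 and 0.244 in +/+ hearts.

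Among the 11 matrix glycoproteins, 4 rose, 1 fell, and 6 were not called. Ctgf encodes connective tissue growth factor, a matricellular protein and a common readout of TGF-beta and YAP signaling. It had 401, 744 and 497 CPM in fl/fl hearts, against 50.4, 73.0 and 60.7 CPM in +/+ hearts. All 3 fl/fl hearts were far above all 3 +/+ hearts, an 8.92-fold increase (log2 fold change 3.16, SE 0.25, adjusted p = 4.00e-05). Exons of Ctgf share 23.2% of their bases with Gm15270 on the other strand. Per kilobase of gene length, Ctgf averaged 191 CPM in fl/fl hearts and 21.5 CPM in +/+ hearts. In fl/fl hearts that was the highest mean per kilobase among the 66 genes, ahead of Sparc at 124 CPM per kilobase, while in +/+ hearts Dcn was the highest at 96.2 CPM per kilobase. These libraries were primed at the poly-A tail, so levels per length compare genes only roughly.

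Postn encodes periostin, a marker of activated fibroblasts. It had 219, 217 and 356 CPM in fl/fl hearts, against 47.1, 52.8 and 46.3 CPM in +/+ hearts. The +/+ hearts were nearly equal, and every fl/fl heart was above them, with heart 3 the highest. The increase was 5.42-fold (log2 fold change 2.44, SE 0.20, adjusted p = 4.03e-05).

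Comp encodes cartilage oligomeric matrix protein, which binds collagen fibrils. It had 70.5, 30.9 and 47.6 CPM in fl/fl hearts, against 3.02, 11.5 and 2.88 CPM in +/+ hearts (8.57-fold, log2 fold change 3.10, SE 0.65, adjusted p = 0.0120). Thbs1 encodes thrombospondin-1, which can activate latent TGF-beta. It had 45.8, 28.5 and 76.6 CPM in fl/fl hearts, against 3.94, 14.6 and 5.70 CPM in +/+ hearts (6.21-fold, log2 fold change 2.63, SE 0.60, adjusted p = 0.0159). In both genes +/+ heart 2 stood above the other +/+ hearts. Without it the log2 fold changes were 4.07 for Comp and 3.38 for Thbs1. The call of Comp was lost without fl/fl heart 3 (adjusted p = 0.0679), and that of Thbs1 without fl/fl heart 1 (0.0605) or fl/fl heart 3 (0.0694). With no filter on low counts the adjusted p was 0.0603 for Comp and 0.0756 for Thbs1.

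Cilp encodes cartilage intermediate layer protein, a matrix protein that binds TGF-beta. It had 95.8, 47.3 and 154 CPM in fl/fl hearts, against 7.44, 46.7 and 10.8 CPM in +/+ hearts. Here +/+ heart 2 came within 1 CPM of fl/fl heart 2, and the difference did not pass (log2 fold change 2.19, SE 0.89, adjusted p = 0.116). Without +/+ heart 2 it did (log2 fold change 3.44, adjusted p = 5.34e-03). Sparc, a collagen-binding protein that helps procollagen into fibrils, had 543, 494 and 376 CPM in fl/fl hearts and 326, 344 and 357 CPM in +/+ hearts (1.38-fold, log2 fold change 0.46, SE 0.15, adjusted p = 0.0351). Its fold change stayed under the threshold for a call, and its adjusted p was above 0.05 without any one of 5 of the 6 hearts, reaching 0.123.

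Fn1 encodes fibronectin, the provisional matrix on which collagen assembles. It had 100.2, 80.3 and 56.6 CPM in fl/fl hearts and 70.3, 86.5 and 88.8 CPM in +/+ hearts, and the groups overlapped (log2 fold change -0.05, SE 0.20, adjusted p = 0.866). Tnc encodes tenascin-C, a glycoprotein of healing wounds, and it was low in every heart, with 2.97, 2.19 and 1.60 CPM in fl/fl hearts and 0.857, 1.71 and 1.17 CPM in +/+ hearts (log2 fold change 0.85, SE 0.39, adjusted p = 0.117). The other thrombospondins were not called, with log2 fold changes of 0.75 for Thbs4 (adjusted p = 0.118) and -0.07 for Thbs2. Without +/+ heart 2, Thbs4 was called higher (1.14, adjusted p = 0.0324).

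Tnxb was the glycoprotein that fell. It encodes tenascin-X, which spaces collagen fibrils and whose loss in humans causes a lax connective tissue. It had 107, 80.1 and 67.1 CPM in fl/fl hearts, against 174, 240 and 209 CPM in +/+ hearts. The groups did not overlap, and the level was 2.45-fold lower (log2 fold change -1.29, SE 0.19, adjusted p = 8.41e-04). The call held without each heart in turn.

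The promoter windows of Postn and Tnxb are shown because these genes are a rise and the fall among the glycoproteins. Each window is 300 bases of RefSeq sequence on GRCm38.p6, from 250 bases before the gene start to 50 after it, written 5′ to 3′ on the gene's strand. The Postn window is chr3:54360857-54361156, plus strand, with a TATAAA box in capitals, and the Tnxb window is chr17:34670285-34670584, plus strand, with a TGANTCA match (the AP-1 motif) in capitals.
Postn: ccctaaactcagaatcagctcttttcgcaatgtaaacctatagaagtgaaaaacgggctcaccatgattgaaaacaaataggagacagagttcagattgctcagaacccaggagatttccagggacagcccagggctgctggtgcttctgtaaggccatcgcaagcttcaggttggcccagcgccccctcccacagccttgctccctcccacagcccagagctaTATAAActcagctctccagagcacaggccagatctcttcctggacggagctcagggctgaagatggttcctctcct
Tnxb: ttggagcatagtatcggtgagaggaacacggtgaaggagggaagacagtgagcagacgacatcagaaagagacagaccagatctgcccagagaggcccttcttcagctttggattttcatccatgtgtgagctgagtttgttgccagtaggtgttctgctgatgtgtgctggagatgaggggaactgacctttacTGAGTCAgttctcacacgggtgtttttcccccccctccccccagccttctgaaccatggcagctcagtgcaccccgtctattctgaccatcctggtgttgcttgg

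Windows of this kind matched 45 of the 66 genes, 6 of them among the 15 called higher and 4 among the 5 called lower. They were searched for GGAATG (TEAD), TGANTCA (AP-1) and CAGACA (SMAD) on both strands and for TATAAA on the gene's strand, and no match of one motif overlapped a match of another. Among the 6 windows of genes called higher, none held the TEAD or AP-1 letters, 2 held the SMAD letters (Col8a1 and Col9a2) and 1 held TATAAA (Postn). Among the 4 windows of genes called lower, only Tnxb had a match, of AP-1. Over all 32851 windows of the same length, 14.7% held GGAATG, 7.81% TGANTCA, 21% CAGACA and 8.32% TATAAA.

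**Figure D2:**
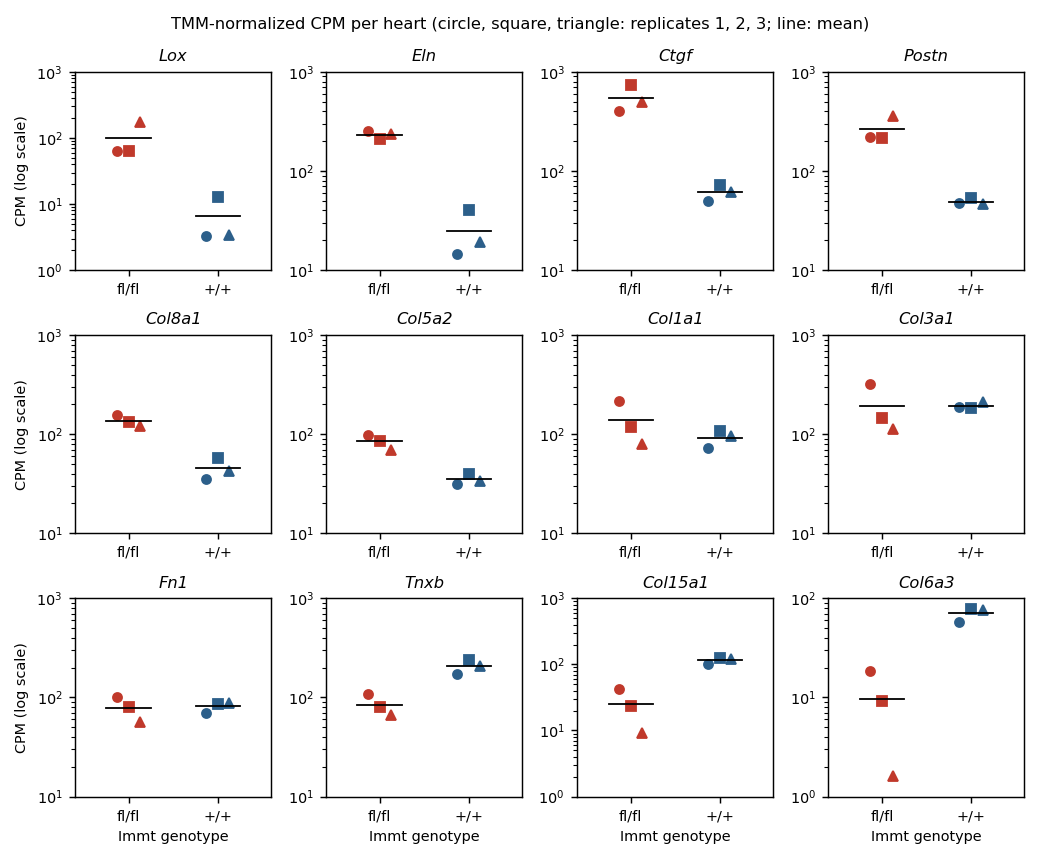
TMM-normalized CPM of 12 matrix genes in each heart on log axes, with fl/fl hearts (red) left of +/+ hearts (blue), replicates 1, 2 and 3 as circle, square and triangle, and the group mean as a line. The groups are apart in Lox, Eln, Ctgf, Postn, Col8a1, Col5a2, Tnxb, Col15a1 and Col6a3 and overlap in Col1a1, Col3a1 and Fn1.

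Of the 9 tested fibrillar collagen chains, Col5a2 was called higher and the other 8 did not pass the adjusted p. Col1a1, which encodes the major chain of type I collagen, had 217, 119 and 79.2 CPM in fl/fl hearts and 72.1, 108 and 96.9 CPM in +/+ hearts. Heart 1 was the highest of all 6 and heart 3 lay within the +/+ range (log2 fold change 0.59, SE 0.36, adjusted p = 0.239). Its partner Col1a2 had 298, 181 and 159 CPM in fl/fl hearts and 117, 171 and 142 CPM in +/+ hearts (log2 fold change 0.57, SE 0.24, adjusted p = 0.0990). Col3a1, the type III chain of more compliant fibers, had 321, 147 and 112 CPM in fl/fl hearts and 189, 185 and 209 CPM in +/+ hearts. Here fl/fl heart 1 lay above all +/+ hearts and fl/fl hearts 2 and 3 below them, for a log2 fold change of -0.01 (SE 0.37, adjusted p = 0.986). Without fl/fl heart 1 the value was -0.58 (adjusted p = 0.0214).

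Type V collagen, which starts the fibrils of types I and III, changed unevenly in its chains. Col5a2 had 98.7, 86.4 and 69.8 CPM in fl/fl hearts, against 31.3, 40.0 and 33.9 CPM in +/+ hearts, a 2.42-fold increase with no overlap (log2 fold change 1.28, SE 0.16, adjusted p = 2.97e-04). Col5a1 had 64.8, 50.6 and 27.9 CPM in fl/fl hearts and 50.7, 61.0 and 60.6 CPM in +/+ hearts, which overlapped (log2 fold change -0.27, SE 0.27, adjusted p = 0.476). The ratio of Col5a2 to Col5a1 counts within each heart, which library scaling cannot alter, was 1.52, 1.71 and 2.50 in fl/fl hearts and 0.618, 0.656 and 0.559 in +/+ hearts, 3.06-fold higher. Col5a2 and Col3a1 are neighbors on chromosome 1, transcribed in opposite directions with their 5′ ends 191744 bases apart. The remaining fibrillar chains, Col11a1, Col27a1, Col5a3 and Col11a2, were not called, at log2 fold changes of 2.37 to -0.56. Col11a1 rested on 12 to 20 counts in fl/fl hearts and 0 to 4 in +/+ hearts (adjusted p = 0.0681). Without fl/fl heart 3, Col11a2 was called lower (-1.26, adjusted p = 0.0134).

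Ratios of chains were computed for 16 pairs picked with the levels in view, so they describe the hearts and carry no independent test. Of all 1711 pairs of tested genes, 63.2% did not overlap between the groups, and with 3 hearts against 3 the smallest p of a two-sided exact permutation test is 0.1. The ratio of Col1a1 to Col1a2, chains that assemble into one molecule, was 0.728, 0.659 and 0.498 in fl/fl hearts and 0.618, 0.631 and 0.683 in +/+ hearts (exact permutation p = 0.9). The ratio of Col1a1 to Col3a1 was 0.676, 0.813 and 0.709 in fl/fl hearts and 0.381, 0.584 and 0.463 in +/+ hearts, 1.56-fold higher with no overlap (exact permutation p = 0.1). Relative to Col1a1, the crosslinking enzyme Lox and the matricellular protein Postn were higher in every fl/fl heart. The ratio of Lox to Col1a1 was 0.288, 0.530 and 2.17 in fl/fl hearts and 0.0461, 0.118 and 0.0356 in +/+ hearts. The ratio of Postn to Col1a1 was 1.01, 1.82 and 4.50 in fl/fl hearts and 0.653, 0.488 and 0.478 in +/+ hearts. Both were highest in fl/fl heart 3, which had the lowest Col1a1 of the fl/fl hearts.

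**Figure D3:**
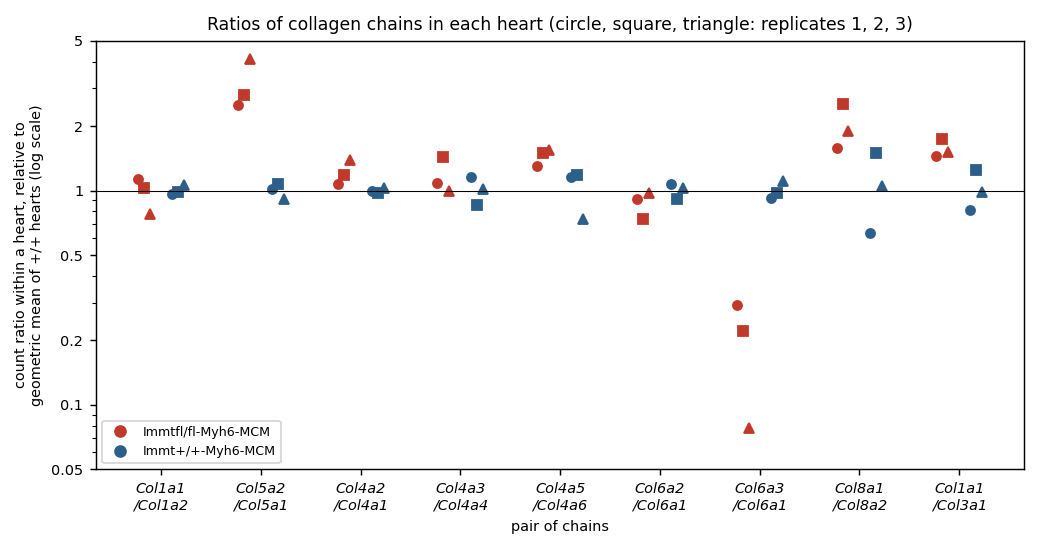
Count ratios of 9 pairs of collagen chains within each heart, divided by the geometric mean of the 3 +/+ hearts, on a log axis, with fl/fl hearts in red left of +/+ hearts in blue and replicates 1, 2 and 3 as circle, square and triangle. Col5a2 to Col5a1 lies above the line and Col6a3 to Col6a1 below it in all 3 fl/fl hearts, while Col1a1 to Col1a2, Col4a3 to Col4a4 and Col6a2 to Col6a1 overlap.

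Of the 8 network collagens 1 was called, and it was higher. Col8a1, a short-chain collagen of vessel walls and injured myocardium, was the chain that was called. It had 156, 133 and 122 CPM in fl/fl hearts, against 35.1, 57.7 and 42.7 CPM in +/+ hearts, a 3.03-fold increase (log2 fold change 1.60, SE 0.19, adjusted p = 2.45e-04). The fl/fl hearts were all above the +/+ hearts. Its partner Col8a2 was low, at 1.48 to 2.82 CPM in fl/fl hearts and 1.09 to 1.58 CPM in +/+ hearts (log2 fold change 0.68, adjusted p = 0.180).

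Type IV collagen forms the basement membrane around each cardiomyocyte and capillary. Col4a1 had 834, 625 and 636 CPM in fl/fl hearts and 443, 724 and 511 CPM in +/+ hearts, which overlapped, with +/+ heart 2 above fl/fl hearts 2 and 3 (log2 fold change 0.32, SE 0.20, adjusted p = 0.236). Col4a2 had 651, 538 and 643 CPM in fl/fl hearts and 320.2, 514 and 382 CPM in +/+ hearts, which did not overlap (1.51-fold, log2 fold change 0.59, SE 0.18, adjusted p = 0.0268). It passed the adjusted p alone, and leaving out single hearts gave adjusted p values from 5.34e-03 to 0.105. Col4a5 had 129, 115 and 68.4 CPM in fl/fl hearts and 53.1, 59.7 and 57.2 CPM in +/+ hearts (1.84-fold, log2 fold change 0.88, SE 0.21, adjusted p = 0.0112), and without fl/fl heart 3 it passed both thresholds (1.11). Col4a3, Col4a4 and Col4a6 had log2 fold changes of 0.45, 0.17 and 0.34, and none passed.

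The type IV genes lie in head-to-head pairs, which makes the 2 members of a pair a natural comparison. Col4a1 and Col4a2 start 21 bases apart on chromosome 8, Col4a3 and Col4a4 72 bases apart on chromosome 1, and Col4a5 and Col4a6 1309 bases apart on chromosome X. The first exons of Col4a1 and Col4a2 overlap, and they share 22 exon bases on opposite strands, while the other 2 pairs have a gap between their starts. The ratio of Col4a2 to Col4a1 was 0.781, 0.860 and 1.01 in fl/fl hearts and 0.723, 0.710 and 0.748 in +/+ hearts, 1.21-fold higher with no overlap (exact permutation p = 0.1). The ratio of Col4a3 to Col4a4 was 0.420, 0.554 and 0.384 in fl/fl hearts and 0.444, 0.330 and 0.391 in +/+ hearts, which overlapped (exact permutation p = 0.5). The ratio of Col4a5 to Col4a6 was 24.8, 28.6 and 29.7 in fl/fl hearts and 22.0, 22.5 and 14.1 in +/+ hearts, 1.44-fold higher.

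The shared start region of Col4a1 and Col4a2 is shown because both genes are read outward from it, and the ratio of their counts is given above. The RefSeq windows on GRCm38.p6 are chr8:11312777-11313076 on the minus strand for Col4a1 and chr8:11312555-11312854 on the plus strand for Col4a2, each written 5′ to 3′ on its own strand. Capitals mark the 78 bases that both windows hold (chr8:11312777-11312854), which read as reverse complements of each other. Neither window held any of the 4 motifs.
Col4a1: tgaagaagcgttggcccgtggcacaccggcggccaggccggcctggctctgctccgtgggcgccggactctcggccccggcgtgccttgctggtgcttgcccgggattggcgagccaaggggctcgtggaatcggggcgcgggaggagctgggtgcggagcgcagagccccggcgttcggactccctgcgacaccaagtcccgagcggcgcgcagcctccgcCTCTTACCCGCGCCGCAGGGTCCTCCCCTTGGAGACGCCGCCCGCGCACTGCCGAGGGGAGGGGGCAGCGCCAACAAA
Col4a2: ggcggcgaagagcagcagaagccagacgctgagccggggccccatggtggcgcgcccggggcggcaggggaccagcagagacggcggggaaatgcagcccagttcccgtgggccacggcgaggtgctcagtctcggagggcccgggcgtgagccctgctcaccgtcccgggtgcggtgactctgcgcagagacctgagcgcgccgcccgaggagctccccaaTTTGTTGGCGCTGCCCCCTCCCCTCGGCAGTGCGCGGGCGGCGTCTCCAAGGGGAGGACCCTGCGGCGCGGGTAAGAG

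Of the 4 tested beaded-filament collagens, 2 fell and 2 were not called. Type VI collagen forms fine filaments next to the basement membrane of muscle cells and is secreted by fibroblasts. Col6a3, the large chain that completes the heterotrimer with Col6a1 and Col6a2, had 18.4, 9.26 and 1.60 CPM in fl/fl hearts, against 58.0, 77.3 and 76.1 CPM in +/+ hearts. The highest fl/fl heart was still below the lowest +/+ heart, and the fl/fl hearts themselves spread widely, with heart 3 the lowest. The level was 7.22-fold lower (log2 fold change -2.85, SE 0.84, adjusted p = 0.0476). This call was lost without fl/fl heart 2 (adjusted p = 0.144), +/+ heart 1 (0.0695), +/+ heart 2 (0.0923) or +/+ heart 3 (0.0792), and with no filter on low counts (0.122), and without fl/fl heart 1 the log2 fold change was -3.68. Col6a6, a chain proposed to take the place of Col6a3, had 2.78, 0.951 and 0.508 CPM in fl/fl hearts, against 15.8, 16.2 and 12.8 CPM in +/+ hearts, 10.5-fold lower (log2 fold change -3.39, SE 0.56, adjusted p = 2.37e-03). Without fl/fl heart 1 it was -4.34.

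Col6a1 had 97.2, 64.8 and 31.8 CPM in fl/fl hearts and 97.1, 123 and 107 CPM in +/+ hearts, and Col6a2 had 82.4, 44.4 and 28.8 CPM in fl/fl hearts and 96.5, 104 and 101 CPM in +/+ hearts. In both, fl/fl heart 1 was near the +/+ hearts and fl/fl heart 3 was the lowest. Neither was called, at log2 fold changes of -0.76 (SE 0.36, adjusted p = 0.143) and -0.96 (SE 0.34, adjusted p = 0.0615). Without fl/fl heart 1 both were called lower, at -1.16 and -1.45. Col6a1 and Col6a2 are neighbors on chromosome 10, and their ratio, Col6a2 to Col6a1, overlapped between the groups (0.848, 0.685 and 0.906 in fl/fl hearts and 0.994, 0.845 and 0.952 in +/+ hearts, exact permutation p = 0.3). The ratio of Col6a3 to Col6a1 was 0.189, 0.143 and 0.0502 in fl/fl hearts and 0.597, 0.627 and 0.714 in +/+ hearts. Col6a3 therefore took a smaller share relative to its partner in every fl/fl heart.

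Among the fibril-associated collagens, 2 rose and 1 fell. Col12a1, which coats fibrils under tension, had 10.4, 9.93 and 7.51 CPM in fl/fl hearts, against 1.37, 2.75 and 1.25 CPM in +/+ hearts, a 5.17-fold increase with no overlap (log2 fold change 2.37, SE 0.34, adjusted p = 6.63e-04). Col9a2, a chain of the cartilage collagen type IX, had 2.95, 1.35 and 1.92 CPM in fl/fl hearts, against 0.214, 0.198 and 0.171 CPM in +/+ hearts (10.6-fold, log2 fold change 3.40, SE 0.47, adjusted p = 5.44e-04). The +/+ values of Col9a2 rest on 8, 8 and 7 counts. Its partner chain Col9a3 stayed at 4 to 21 counts in fl/fl hearts and 14 to 22 counts in +/+ hearts, and was not called (log2 fold change -0.88, adjusted p = 0.339). Col22a1, a collagen of the muscle-tendon junction, had only 4, 4 and 14 counts in fl/fl hearts, against 20, 18 and 56 counts in +/+ hearts (5.88-fold lower, log2 fold change -2.56, SE 0.75, adjusted p = 0.0235). In both groups heart 3 was the highest. The call was lost without fl/fl heart 1 (adjusted p = 0.0725), fl/fl heart 2 (0.0790) or +/+ heart 3 (0.132), and the log2 fold changes were -3.42 without fl/fl heart 3 and -1.88 without +/+ heart 3.

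Col16a1, found at fibrillin microfibrils, had 18.5, 16.4 and 15.5 CPM in fl/fl hearts and 7.82, 13.1 and 12.1 CPM in +/+ hearts. The groups did not overlap, and it passed the adjusted p alone (1.52-fold, log2 fold change 0.60, SE 0.21, adjusted p = 0.0493), with adjusted p values up to 0.145 when single hearts were left out. Col14a1 and Col20a1 were not called (log2 fold changes 0.24 and -0.90).

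Col15a1 was the remaining collagen that fell. It encodes a basement-membrane-associated collagen with a large proteoglycan part, a multiplexin, and its loss in mice makes muscle and heart fragile under load. It had 42.3, 23.3 and 9.08 CPM in fl/fl hearts, against 102, 127 and 119 CPM in +/+ hearts. All 3 fl/fl hearts were below all +/+ hearts, with heart 3 the lowest, and the level was 4.65-fold lower (log2 fold change -2.22, SE 0.52, adjusted p = 0.0181). The adjusted p was 0.0687 without fl/fl heart 2 and 0.0847 with no filter on low counts, and the log2 fold change was -2.83 without fl/fl heart 1. The other multiplexin, Col18a1, whose C-terminal fragment is endostatin, was not called (log2 fold change 0.05). Col7a1, Col26a1 and Col28a1 were not called either, between -0.53 and 0.45. The transmembrane collagens Col13a1, Col23a1 and Col25a1 were low in all hearts and not called (0.66, -0.96 and -1.82). Without fl/fl heart 2, Col23a1 was called lower (-1.34, adjusted p = 0.0245), and without fl/fl heart 1, Col25a1 was (-2.66, adjusted p = 0.0443).

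The 4 small and large proteoglycans split. Bgn, which encodes biglycan, a fibril-binding proteoglycan that also signals to macrophages once released, had 718, 495 and 431 CPM in fl/fl hearts, against 208, 341 and 271 CPM in +/+ hearts. The groups did not overlap, and the increase was 2.00-fold (log2 fold change 1.00, SE 0.23, adjusted p = 9.03e-03), just past the fold threshold. Its log2 fold change was 0.77 without fl/fl heart 1, 0.84 without +/+ heart 1 and 0.99 without +/+ heart 3, each with an adjusted p under 0.05. The call was also lost with upper-quartile factors (0.90), a filter at a mean CPM of 1 (0.992), a replicate block (0.992) and a term for Xist (0.985), again with an adjusted p under 0.05 in each. Dcn, which encodes the related decorin, had 476, 419 and 554 CPM in fl/fl hearts and 517, 746 and 422 CPM in +/+ hearts, and the groups overlapped (log2 fold change -0.22, SE 0.21, adjusted p = 0.445). The ratio of Bgn to Dcn was 1.51, 1.18 and 0.779 in fl/fl hearts and 0.403, 0.458 and 0.641 in +/+ hearts, with no overlap. Lum, which encodes lumican and neighbors Dcn on chromosome 10, had 55.8, 22.6 and 17.1 CPM in fl/fl hearts and 66.8, 80.0 and 88.1 CPM in +/+ hearts. Its groups did not overlap, but the adjusted p was 0.0554 (log2 fold change -1.30, SE 0.44), and without fl/fl heart 1 it was called lower (-1.97, adjusted p = 1.14e-04). Vcan, the large proteoglycan versican, did not pass (log2 fold change 0.05).

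**Figure D4:**
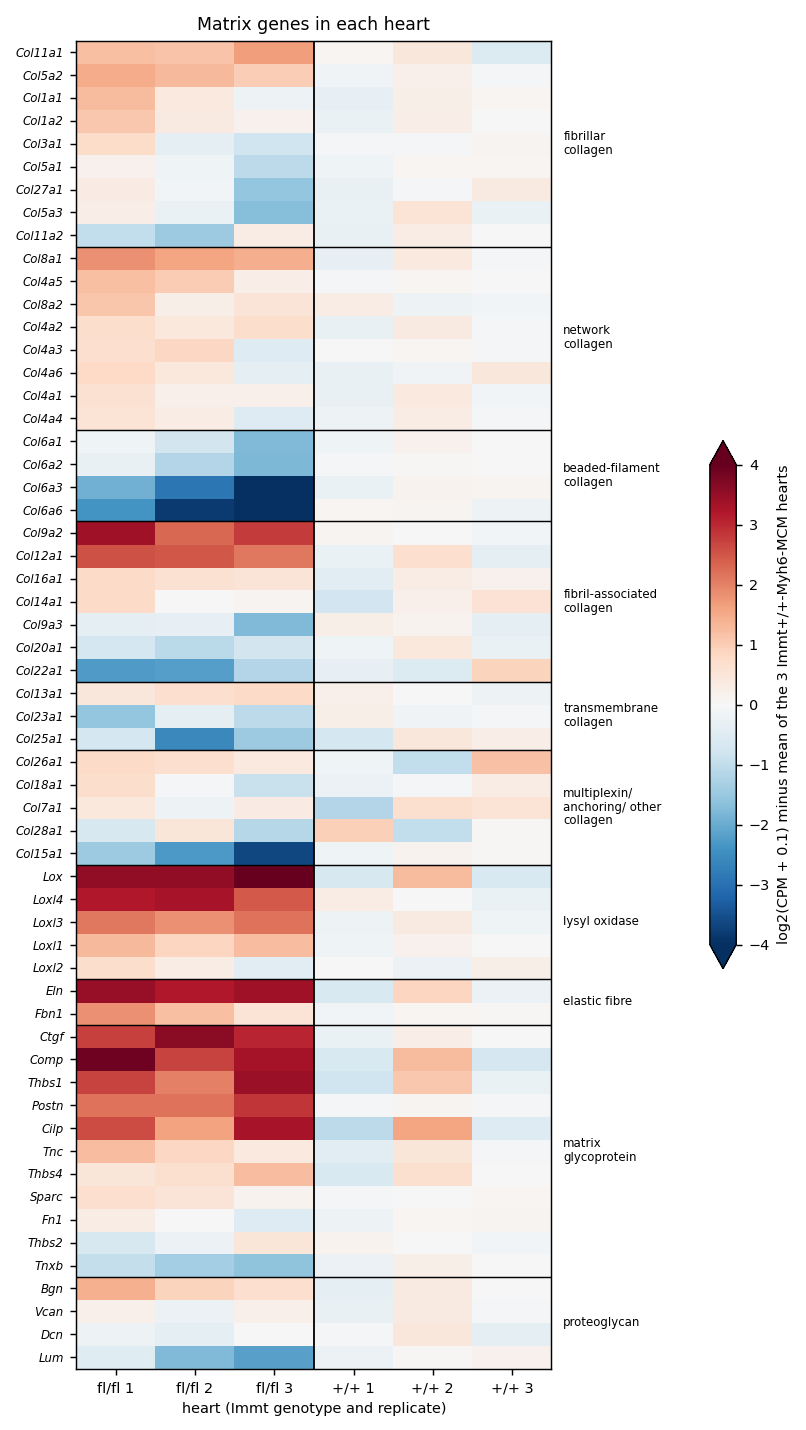
Log2(CPM + 0.1) of 58 matrix genes in each heart minus the mean of the 3 Immt+/+-Myh6-MCM hearts, with the 3 fl/fl hearts left of the 3 +/+ hearts and genes grouped by role (red higher, blue lower, colors limited to -4 and 4). Lox, Loxl1, Loxl3, Loxl4 and several glycoproteins are red in all 3 fl/fl hearts, and the beaded-filament collagens are bluest in fl/fl heart 3.

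The fl/fl hearts also differed from each other. Heart 1 was the highest and heart 3 the lowest of the fl/fl hearts for Col1a1, Col1a2, Col3a1, Col5a1, all 4 tested type VI chains, Col15a1, Fbn1, Bgn, Lum, Fn1 and Sparc. For Lox, Postn, Thbs1 and Cilp heart 3 was instead the highest fl/fl heart. Among the +/+ hearts, heart 2 was the highest for Lox, Eln, Comp, Thbs1 and Cilp, and also for Col4a1, Col4a2 and Bgn.

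Summed over all 64 matrix genes, the level was 6836, 5571 and 5478 CPM in fl/fl hearts 1, 2 and 3 and 3472, 4835 and 3888 CPM in +/+ hearts 1, 2 and 3. Collagen chains alone summed to 3210.4, 2283 and 2097 CPM in fl/fl hearts and 1786, 2523 and 2100.0 CPM in +/+ hearts, which overlapped. The sum over glycoproteins was 1624, 1774 and 1712 CPM in fl/fl hearts and 741, 927 and 832 CPM in +/+ hearts. These groups did not overlap, and the mean was 2.04-fold higher in fl/fl hearts. Elastic fiber genes were 4.14-fold higher by mean sum, lysyl oxidases 3.76-fold and network collagens 1.45-fold, each without overlap. The beaded-filament sum was 201, 119 and 62.8 CPM in fl/fl hearts and 268, 321 and 297 CPM in +/+ hearts, a ratio of means of 0.432. The multiplexin, anchoring and other collagens summed to 66.1, 38.6 and 18.5 CPM in fl/fl hearts and 115, 142 and 139 CPM in +/+ hearts (ratio of means 0.311). Col15a1 was the largest part of that sum in every heart. The low transmembrane collagen sums had a ratio of means of 0.701. None of these lower sums overlapped between the groups. Fibrillar collagen sums overlapped, at 1044, 615 and 464 CPM in fl/fl hearts and 491, 616 and 579 CPM in +/+ hearts.

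**Figure D5:**
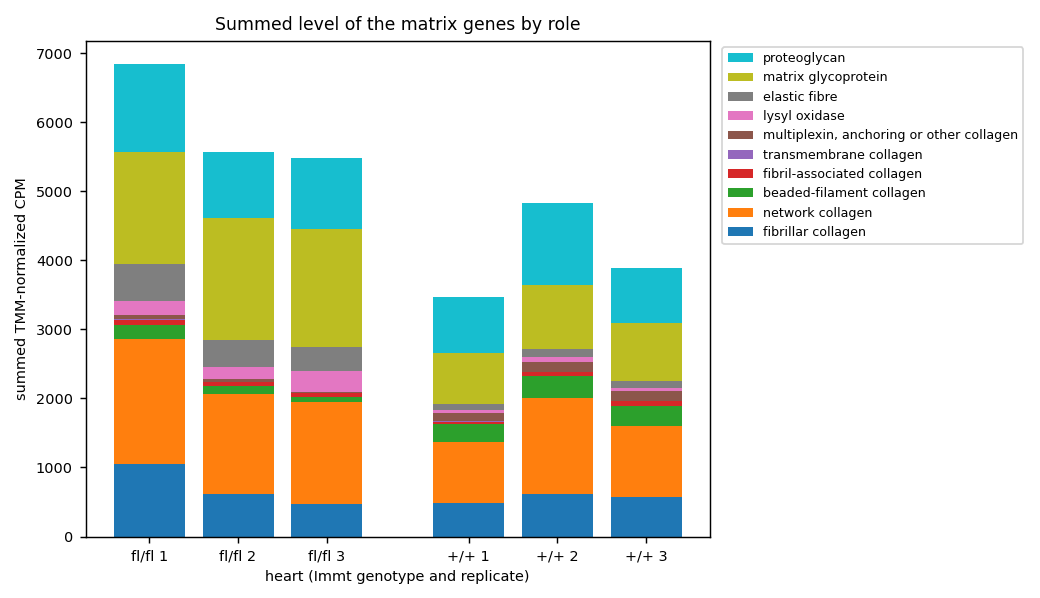
Summed TMM-normalized CPM of the 64 matrix genes in each heart, stacked by role, with the 3 fl/fl hearts left of the 3 +/+ hearts. The whole bar is 5478 to 6836 CPM in fl/fl hearts and 3472 to 4835 CPM in +/+ hearts, and the fibrillar part overlaps between the groups.

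Genes that process, receive or regulate the matrix were counted from 5 lists, beside the 9.91% of all tested genes that were called higher and the 10.6% called lower. Of 30 tested genes of TGF-beta signaling and fibroblast activation, 9 were called higher (30%) and 2 lower (6.67%), with a median log2 fold change of 0.20. Tgfb2, a TGF-beta ligand, rose by 3.19 on the log2 scale (adjusted p = 1.36e-04). Ltbp1, which holds latent TGF-beta in the matrix, fell by 2.20 (adjusted p = 7.17e-05), and the co-receptor Tgfbr3 was at -0.89 (adjusted p = 4.98e-04), inside the fold threshold. The other gene called lower was Fap, a marker of activated fibroblasts (-1.26). Acta2, Scx, Cthrc1 and Ltbp2 of the same list were called higher (2.82, 2.53, 1.93 and 3.26), and Meox1, Tagln, Runx1 and Thy1 were not called. Fap and these genes are named here after their values were seen. Cthrc1 was low in every heart, at 0.435 to 1.21 CPM in fl/fl hearts and 0.196 to 0.268 CPM in +/+ hearts. Without fl/fl heart 1 the list had 5 genes called higher, and it had 1 called lower without fl/fl heart 3, +/+ heart 1 or +/+ heart 3.

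Of 29 tested genes of collagen processing and export, 2 were higher (6.90%) and 1 lower (3.45%), both shares below those of all tested genes, with a median of -0.00. The 2 were P3h2, a prolyl 3-hydroxylase of basement membrane collagen (2.21, adjusted p = 3.16e-04), and Adamts2, which removes the N-propeptide of fibrillar procollagen (1.53, adjusted p = 3.67e-04). Bmp1, which removes the C-propeptide, was at -0.75 (adjusted p = 2.99e-03) and P3h4 at -0.73 (adjusted p = 6.17e-03), both inside the fold threshold. The gene called lower was Colgalt2, a collagen galactosyltransferase outside the naming rule (-1.61, adjusted p = 8.82e-03). Of 11 tested collagen receptors and uptake genes none was called by edgeR or DESeq2, and 3 had an unadjusted p under 0.05. The integrin beta chain Itgb1 was at 0.55 (adjusted p = 5.00e-03), and Mrc1, Ddr1 and Itga10 were at 0.49, 0.56 and -1.02, with adjusted p values of 0.0588, 0.0667 and 0.122.

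Of 42 other tested elastic fiber and matrix glycoprotein genes, 11 were higher (26.2%) and 6 lower (14.3%), with a median of 0.06. Wisp1 and Wisp2, of the same family as Ctgf, rose by 4.43 and 4.26 (adjusted p = 2.86e-05 and 6.23e-05), Igfbp7 rose by 1.21 (adjusted p = 3.33e-04), and Frem2, a basement membrane protein, fell by 3.44 (adjusted p = 1.53e-05). Of 18 other tested proteoglycan and hyaluronan genes, 5 were higher (27.8%) and 2 lower (11.1%), with a median of 0.03, and with Hapln4 at 5.13 (adjusted p = 4.53e-04), Fmod, which encodes fibromodulin, at 3.68 (adjusted p = 3.10e-03), the hyaluronidase Hyal1 at 1.80 (adjusted p = 3.98e-04) and Podn, which encodes podocan, at -2.24 (adjusted p = 8.37e-04). The others of this list called higher were Cd44 and Cemip, and the other called lower was Has3, named after their values were seen. Hapln4 was at 0 CPM in +/+ heart 1 and at 0.0992 and 0.0978 CPM in +/+ hearts 2 and 3. With no filter on low counts the proteoglycan list had 3 genes called higher.

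Markers of the cells that could make these transcripts were counted in the same way, against the same shares of all tested genes (9.91% higher and 10.6% lower). The marker genes named here as called were named after their values were seen, and each pair of ranges gives the summed level in fl/fl hearts and then in +/+ hearts. Of 10 cardiac fibroblast markers 1 was called higher (Mfap5) and 1 lower (Htra3), 10% each and near those shares. The sum was 1581 to 1738 CPM in fl/fl hearts and 1825 to 2855 CPM in +/+ hearts, highest in +/+ heart 2, and did not overlap between the groups. The median log2 fold change of the fibroblast markers was -0.39. On the adjusted p alone 1 was higher and 3 were lower (Htra3, Pi16 and Gsn), where 19.9% and 18.5% of all tested genes passed. Of 11 smooth muscle and pericyte markers 1 was higher (Acta2, 9.09%) and 3 lower (Abcc9, Myh11 and Vtn, 27.3%), with sums of 1231 to 1754 CPM in fl/fl hearts and 1897 to 2166 CPM in +/+ hearts. Of 11 endothelial markers 1 was higher (Vwf, 9.09%) and none was called lower, with sums of 1065 to 1413 CPM in fl/fl hearts and 1472 to 1545 CPM in +/+ hearts. Their median log2 fold change was -0.41. On the adjusted p alone 1 of them was higher and 4 were lower, where 19.9% and 18.5% of all tested genes passed. Of 12 macrophage markers 2 were higher (Cd163 and Cd14, 16.7%), with sums of 299 to 683 CPM in fl/fl hearts and 260.2 to 334 CPM in +/+ hearts, which overlapped. All 12 had a log2 fold change above 0, with a median of 0.71, and on the adjusted p alone 4 were higher and none was lower. Of 11 cardiomyocyte markers 6 were lower (54.5%), with sums of 35245 to 48740.1 CPM in fl/fl hearts and 80251 to 84851 CPM in +/+ hearts.

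Of 5 tested epicardial and mesothelial markers 3 were higher (Krt8, Krt18 and Wt1), with sums of 46.6 to 53.3 CPM in fl/fl hearts and 8.95 to 12.6 CPM in +/+ hearts. Most of the fl/fl sum was Krt18, at 29.1 to 33.4 CPM in fl/fl hearts and 0.161 to 0.587 CPM in +/+ hearts. Aldh1a2 (log2 fold change -1.09, adjusted p = 0.0547) and Upk3b (0.55, adjusted p = 0.756) were not called by edgeR. DESeq2 called 1 marker of this list lower, and Aldh1a2 was the only tested marker of the list with a log2 fold change below 0. Krt19, Msln, Muc16, Upk1b and Lrrn4 had too few reads to be tested. Of 5 tested atrial markers 4 were higher (Bmp10, Dkk3, Nppa and Myl4) and 1 lower (Nr2f1), with sums of 1220.1 to 1654 CPM in fl/fl hearts and 117 to 245 CPM in +/+ hearts. Of 6 tested Schwann cell and nerve markers 2 were lower (Cdh19 and Sox10), with sums of 9.19 to 16.5 CPM in fl/fl hearts and 21.9 to 26.4 CPM in +/+ hearts. Of 3 cartilage and valve, 4 adipocyte and 6 T and B cell markers tested, none was called by edgeR, and the number with an unadjusted p under 0.05 was 0, 0 and 1. DESeq2 called 1 of them, a T and B cell marker, higher. The sums were 18.6 to 146 CPM in fl/fl hearts and 25.1 to 36.7 CPM in +/+ hearts for cartilage and valve, 411 to 811 CPM in fl/fl hearts and 409 to 553 CPM in +/+ hearts for adipocytes, and 3.04 to 22.4 CPM in fl/fl hearts and 1.88 to 3.83 CPM in +/+ hearts for T and B cells, each highest in fl/fl heart 3. In the first of these lists fl/fl heart 3 had 142 CPM of Prg4, which encodes lubricin, against 12.1 to 30.8 CPM in the other 5 hearts. Its adipocyte sum was nearly all Fabp4 (788 CPM), with Adipoq at 0.145 CPM and Plin1 at 0.435 CPM. Its T and B cell sum was nearly all Cd3e (20.9 CPM), with Cd3d at 0.145 CPM and Cd3g at 0.0363 CPM. No marker was at 0 in all 6 hearts, and Snorc and Sln were not analysed here. The part of these cell types in the matrix results was not tested.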

How the data were processed

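Messenger RNA from hearts of 3 Immtfl/fl-Myh6-MCM and 3 Immt+/+-Myh6-MCM mice was analysed. Libraries were primed with oligo-dT carrying molecular identifiers, and the sources used here do not say whether duplicates were removed or strand was used in counting. The submitters' processing notes name the builds GRCm38 and mm10 and the tools edgeR 4.0.16, Subread 2.1.1 with featureCounts, SAMtools 1.22.1 and STAR 2.7.11. The authors deposited raw counts per gene, which were used, beside a per-library scaled signal, group means, FPKM and the authors' own log2 fold changes, p-values and adjusted p-values, which were not used. Samples were grouped by genotype in the labels. That replicates are separate mice is taken from the study's methods.

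Counts were filtered with filterByExpr (minimum count 10, minimum total 15), scaled by TMM and tested with edgeR 4.0.16 (robust quasi-likelihood, prior count 0.125) in R 4.3.3, with Benjamini-Hochberg adjustment over 17146 genes. Every adjusted p is from this test unless DESeq2 is named. SE is the log2 fold change divided by the square root of F. Genes are 66 protein-coding names, roles were assigned from general knowledge, and the members and lists were chosen with earlier results of these data known. Per-heart values are given for each gene called or past the adjusted p, and for a fixed set of well-known matrix genes. Of each pathway list up to 4 genes with the smallest p are named, except 1 gene that is not reported here. Promoter windows came from RefSeq (GRCm38.p6), exon overlaps from GENCODE M21. The fit was tested on simulated data. Alternatives were edgeR's RLE and upper-quartile factors, DESeq2 1.42.0, no filter, a mean CPM of at least 1, a replicate block, a term for Xist, removal of mitochondrially encoded genes, and leaving out each heart. Depth was 42301627 to 53251529 counts per heart.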

Additional observations from a re-analysis of the deposited data

How the results depend on the processing

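The number of matrix genes called higher in fl/fl hearts (15) was 13 to 16 under the other normalizations, filters, tests and covariates, and 12 to 17 when single hearts were left out. The number called lower (5) was 9 with upper-quartile factors, 3 with no filter on low counts, and 3 to 8 when single hearts were left out, the most without fl/fl heart 1. On the adjusted p alone, the number lower (5) was 9 with upper-quartile factors, 9 with DESeq2, 3 with no filter, and 3 to 9 without single hearts. Upper-quartile factors moved the median log2 fold change of all genes by -0.10. When single hearts were left out the log2 fold change crossed 0 for 14 genes, none of which was called: Col3a1 (-0.58 to 0.27), Col5a1 (-0.54 to 0.0101), Fn1 (-0.24 to 0.15), Dcn (-0.39 to 0.0395), Col4a4, Col7a1, Col14a1, Col18a1, Col26a1, Col27a1, Col28a1, Loxl2, Thbs2 and Vcan. Of these, Col7a1, Col18a1 and Vcan also crossed 0 under other alternatives. The cause was not tested. Cilp passed with DESeq2 (adjusted p = 0.0450).

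No pairing of hearts by replicate number was seen. Deviations of same-numbered hearts correlated at -0.01, -0.07 and 0.01 across genes, and those of differently numbered hearts at -0.0596 to 0.0955. With 3 hearts per group these correlations cannot exclude that hearts were matched by number. With the replicate number as a block, 14 matrix genes were higher and 5 lower, and Col6a3 (adjusted p = 0.0685) and Bgn (log2 fold change 0.99) lost their calls while Col6a2 gained one (log2 fold change -1.09, adjusted p = 0.0342). Col22a1 and Col11a1 rest on at most 56 and 20 counts in any heart.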
